A study of Mus musculus with 9 samples.

Results

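The Wnt pathway genes examined here are 10 of the 55385 mouse genes in the deposited table. They were chosen by name as ligands, inhibitors and target genes of Wnt signaling that are active in kidney fibrosis. Earlier results of these data were known at that time, so counts of calls among them describe these genes and are no test of the pathway. Wnt4, Wnt5a, Wnt7b, Wnt9a and Wnt11 encode secreted ligands, Ctnnb1 encodes β-catenin, Axin2 and Lef1 are targets of β-catenin that also act within the pathway, and Dkk3 and Sfrp1 encode secreted proteins of inhibitor families. All 10 passed the filter on low counts and were among the 21392 genes tested.

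Poly(A) RNA from kidneys of male C57BL/6 mice (C57BL/6J in the paper) that were aged 8 to 10 weeks before the 4 weeks of treatment was sequenced, with 3 libraries in each of 3 groups, each replicate number taken as 1 mouse. Control mice were untreated. HN (hyperuricemic nephropathy) mice received adenine at 0.16 g/kg and potassium oxonate at 2.4 g/kg every other day over 4 weeks, and PEC mice received the same agents together with oral pectolinarigenin, a plant flavonoid, daily at 25 mg/kg. This dose is the one the paper's account of its sequencing names, since the sample labels give none and the methods also list a higher dose. Titles of the Control samples name the disease model, but the label for disease state reads control, and that label was followed. The libraries are called by the replicate numbers of the labels, namely 2, 4 and 5 for Control, 4, 8 and 12 for HN, and 1, 2 and 3 for PEC. Reads counted on genes numbered 75320528, 74965874 and 78459183 in the Control libraries, 74315544, 81069646 and 74212324 in the HN libraries, and 74397038, 65583215 and 57714111 in the PEC libraries, in this order of replicates. The 3 comparisons share libraries, so the HN mice enter both HN against Control and PEC against HN.

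Wnt ligands bind Frizzled receptors with the co-receptors LRP5 and LRP6, which stops a complex of Axin, APC and GSK3 from marking β-catenin for destruction. Stabilized β-catenin enters the nucleus and switches on target genes together with TCF/LEF factors, while other branches signal without β-catenin. In the kidney the pathway is needed to form nephrons, is quiet in most adult tubules and is known to be active again after injury and in fibrosis.

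Levels are given as TMM-scaled FPKM, which is the deposited FPKM (fragments per kilobase of gene, scaled to the reads of the library) divided by the TMM factor of the library. These factors correct for a different make-up of the RNA and were 0.8185, 0.8318 and 0.7778 in Control, 1.148, 1.203 and 1.224 in HN, then 1.045, 1.022 and 1.046 in PEC libraries. With TMM factors the median log2 fold change of all tested genes was 0.00 for HN against Control, and with library totals alone, the scale of the deposited FPKM, it was 0.56. For PEC against HN the corresponding medians were -0.02 and -0.21, and for PEC against Control 0.04 and 0.40. With limma on log2(FPKM + 1) the medians of the 3 comparisons were 0.35, -0.19 and 0.19, on log2(FPKM + 0.1) 0.47, -0.25 and 0.26, and with offsets for gene length and GC content -0.22, 0.05 and -0.13, so that values under each scale below are to be read against its median. Mitochondrial genes took 13.3%, 12.9% and 16.3% of reads in Control, 6.01%, 6.22% and 6.34% in HN, then 13%, 10.3% and 13.6% in PEC libraries. HN libraries lay below all others in these shares, Control and PEC overlapped, and their part in the results was not tested.

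Calls required a fold change of 1.5 or more with an adjusted p of 0.05 or less in edgeR's quasi-likelihood test with Benjamini-Hochberg adjustment over all tested genes, and every adjusted p given below comes from that test unless another tool is named. In HN against Control mice, 7 of the 10 members were called higher and 0 lower, beside 17.7% and 14.7% of all tested genes. In PEC against HN mice, 0 members were called higher and 5 lower, beside 13.4% and 15.3% of all tested genes. In PEC against Control mice, 2 members were called higher and 1 lower, beside 18.9% and 17.4% of all tested genes. Both counts of 0 from edgeR were also 0 at an unadjusted p and with DESeq2. The median log2 fold change of the members was 1.11, -0.69 and 0.28 in these comparisons, where that of all tested genes was 0.00, -0.02 and 0.04. An exact permutation test of 3 against 3 libraries cannot give a two-sided p under 0.10, and none was used for single genes.

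**Figure D1:**
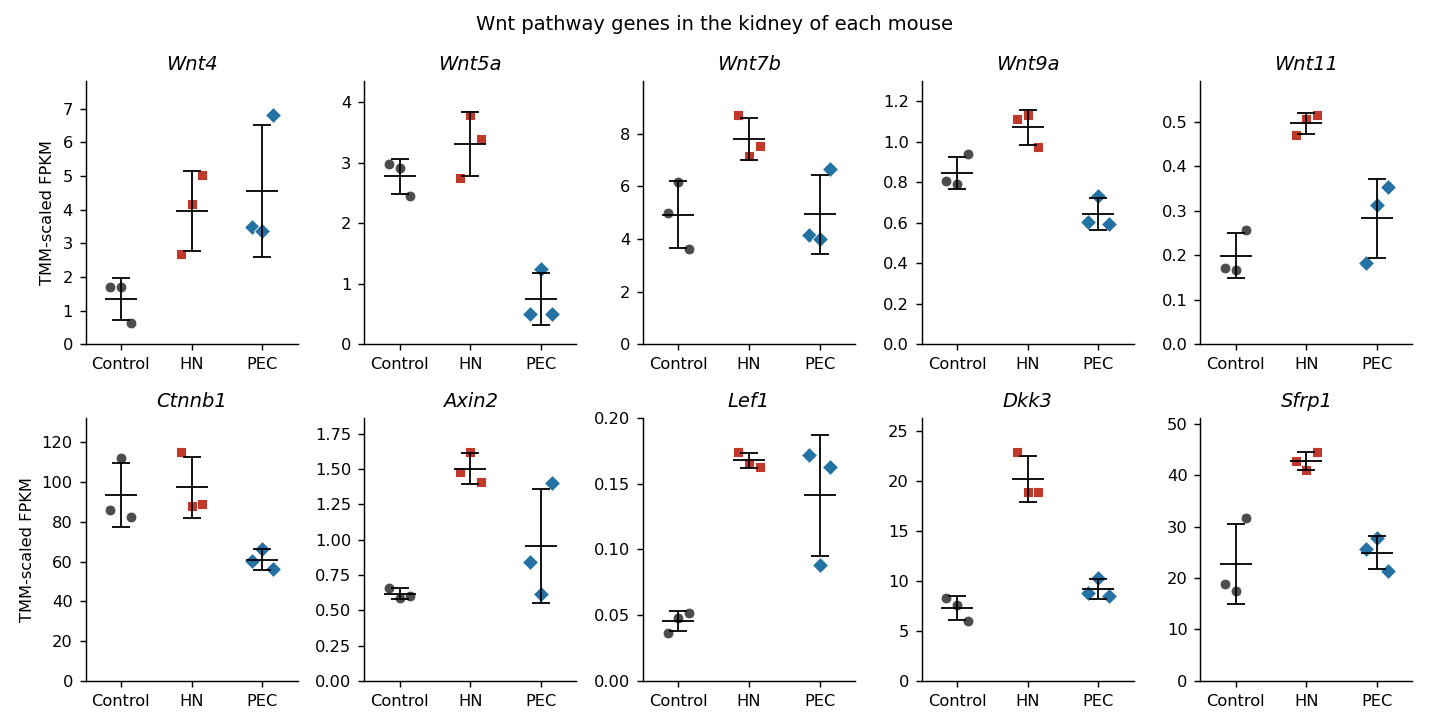
TMM-scaled FPKM (vertical axis, from 0, a scale of its own for each gene) of the 10 Wnt pathway genes by group. Each point is 1 mouse, and the bar and whiskers are the mean and SD of 3 mice. Dkk3 lay between 18.9 and 22.9 in HN mice and at 10.3 or below in all other mice, whereas Wnt5a lay at 1.24 or below in PEC mice only.

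Among the 5 ligands, Wnt7b had the highest TMM-scaled FPKM in every library but PEC replicate 3, where Wnt4 exceeded it. It encodes a ligand of the collecting duct lineage that signals through β-catenin and shapes the medulla (ENSMUSG00000022382, chromosome 15 from 85535437 to 85581821 on GRCm38, minus strand). Its TMM-scaled FPKM was 4.98, 6.16 and 3.61 in Control replicates 2, 4 and 5, then 8.69, 7.15 and 7.51 in HN replicates 4, 8 and 12, and 4.15, 4.0 and 6.66 in PEC replicates 1, 2 and 3. All HN values lay above all Control and all PEC values, and Control and PEC overlapped. The rise of Wnt7b in HN mice was called, with a log2 fold change of 0.68 (SE 0.24, 95% interval 0.14 to 1.23, edgeR adjusted p = 0.0469). This call was close to the threshold and was lost on removal of Control replicate 2 or 5, HN replicate 4, 8 or 12, or PEC replicate 1, with adjusted p between 0.0168 and 0.136 over the 9 libraries left out in turn. With offsets for gene length and GC content the value was 0.30 (edgeR adjusted p = 0.305), and without a filter on low counts it was 0.71 (edgeR adjusted p = 0.0523). For PEC against HN the log2 fold change of -0.64 (95% interval -1.18 to -0.09, edgeR adjusted p = 0.0643) missed the threshold. Without PEC replicate 3, the highest Wnt7b library of that group, it was -0.89 (edgeR adjusted p = 0.0118), and without Control replicate 5 it was -0.64 (edgeR adjusted p = 0.0419). DESeq2 called it too, at -0.64 (DESeq2 adjusted p = 0.0298), as did edgeR on library totals alone, at -0.83 (edgeR adjusted p = 0.0273). For PEC against Control Wnt7b was 0.05 (95% interval -0.49 to 0.59), and the sign turned without PEC replicate 3, at -0.21, and without Control replicate 5, at -0.14.

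Wnt4 drives the conversion of mesenchyme to epithelium when nephrons form and is known to return in fibroblasts after injury (ENSMUSG00000036856, chromosome 4 from 137277489 to 137299726, plus strand). Its level was 1.71, 1.71 and 0.630 TMM-scaled FPKM in Control replicates 2, 4 and 5, rose to 2.68, 4.16 and 5.03 in HN replicates 4, 8 and 12, and was 3.48, 3.35 and 6.80 in PEC replicates 1, 2 and 3. Every HN and PEC library lay above every Control library, while HN and PEC overlapped, with PEC replicate 3 above all HN libraries. The log2 fold change was 1.58 for HN against Control (SE 0.44, edgeR adjusted p = 0.0171) and 1.79 for PEC against Control (SE 0.44, edgeR adjusted p = 0.00869). Without HN replicate 12 the former was 1.36 (edgeR adjusted p = 0.0582, with a range of 0.0106 to 0.0582 over the libraries left out) and not called. PEC against HN gave 0.22 with a 95% interval from -0.74 to 1.17, and the sign turned, at -0.18, without PEC replicate 3.

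Wnt5a is the best known ligand of the branches that do not use β-catenin and signals through the receptors ROR2 and RYK (ENSMUSG00000021994, chromosome 14 from 28504750 to 28527448, plus strand). TMM-scaled FPKM was 2.97, 2.91 and 2.44 in Control replicates 2, 4 and 5 and 2.74, 3.78 and 3.39 in HN replicates 4, 8 and 12, but only 0.498, 1.24 and 0.497 in PEC replicates 1, 2 and 3. All PEC libraries therefore lay below all libraries of both other groups, and Control and HN overlapped. The fall with PEC was 2.14 on the log2 scale against HN, from 3.31 ± 0.524 to 0.746 ± 0.430 (SD, n = 3), at edgeR adjusted p = 0.00112. Against Control the log2 fold change was -1.86 (SE 0.33, edgeR adjusted p = 0.00159), and both differences were called in all 20 other settings tried. HN against Control was 0.28 with a 95% interval from -0.44 to 1.00. On the deposited FPKM scale the HN values, from 3.15 to 4.55, did not overlap the Control values, from 1.90 to 2.43, and limma on log2(FPKM + 1) called Wnt5a higher, at 0.60 (limma adjusted p = 0.0170).

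Wnt9a, a ligand known for its part in joint formation, had fewer reads, from 136 to 410 per library (ENSMUSG00000000126, chromosome 11 from 59306928 to 59333552, plus strand). It stood at 0.806, 0.793 and 0.939 TMM-scaled FPKM in Control replicates 2, 4 and 5, at 1.11, 1.13 and 0.972 in HN replicates 4, 8 and 12, and at 0.603, 0.734 and 0.593 in PEC replicates 1, 2 and 3. On this scale the 3 groups did not overlap, with HN highest and PEC lowest, although the gap between Control replicate 5 and HN replicate 12 was small. Only PEC against HN was called, with a fall of 0.72 on the log2 scale (SE 0.18, edgeR adjusted p = 0.0108). On log2(FPKM + 1) this fall was 0.45 and short of the fold threshold. HN against Control was 0.36 (95% interval -0.04 to 0.76) with TMM factors, and it was 0.92 and called with library totals alone (edgeR adjusted p = 0.00166). PEC against Control was -0.36 (95% interval -0.76 to 0.04), from 0.00 to -0.80 over the settings, and on the deposited FPKM scale these groups overlapped.

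Wnt11 guides branching of the ureteric bud in the developing kidney and is induced at the bud tips (ENSMUSG00000015957, chromosome 7 from 98835112 to 98853811, plus strand). It was the ligand with the lowest level of these 5, at 0.171, 0.168 and 0.257 TMM-scaled FPKM in Control replicates 2, 4 and 5, 0.470, 0.507 and 0.515 in HN replicates 4, 8 and 12, and 0.182, 0.313 and 0.354 in PEC replicates 1, 2 and 3. HN libraries lay above all others, and Control and PEC overlapped. The counts behind these values were 49 to 74 reads in Control, 186 to 228 in HN and 67 to 101 in PEC libraries, so counting error is larger than for the other ligands. In HN mice Wnt11 was called higher than in Control mice, at 1.29 on the log2 scale (SE 0.31, edgeR adjusted p = 0.00833), in all 17 settings that tested it. The PEC against HN value of -0.80 (95% interval -1.49 to -0.12, edgeR adjusted p = 0.0634) was not called with edgeR and TMM factors. It was called with edgeR on library totals alone, at -1.01 (edgeR adjusted p = 0.0241), and with DESeq2, at -0.81 (DESeq2 adjusted p = 0.0308). PEC against Control was 0.49 (95% interval -0.21 to 1.18).

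In Control mice the ligands ranked Wnt7b, Wnt5a, Wnt4, Wnt9a and Wnt11 by mean TMM-scaled FPKM, at 4.92, 2.77, 1.35, 0.846 and 0.199, with overlapping libraries for Wnt4 and Wnt9a only. In HN mice Wnt4 stood at 3.96 ± 1.19 and Wnt5a at 3.31 ± 0.524 (SD, n = 3), and their libraries overlapped. In PEC mice Wnt4, at 4.54 ± 1.95, overlapped Wnt7b, at 4.94 ± 1.49, and Wnt5a, at 0.746 ± 0.430, overlapped Wnt9a, at 0.643 ± 0.0787 (SD, n = 3). Neighbours with overlapping libraries have no firm order, which applies to Wnt4 and Wnt9a in Control mice, Wnt4 and Wnt5a in HN mice and both pairs in PEC mice.

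Ctnnb1 encodes β-catenin, which also links cadherins to the cytoskeleton at cell junctions (ENSMUSG00000006932, chromosome 9 from 120929216 to 120960507, plus strand). With 86.0, 112 and 82.6 TMM-scaled FPKM in Control replicates 2, 4 and 5, 115, 88.0 and 89.0 in HN replicates 4, 8 and 12, and 60.4, 66.3 and 56.2 in PEC replicates 1, 2 and 3, it was the most abundant member. Control and HN overlapped, and all PEC libraries lay below both. On the deposited FPKM scale Control, from 64.3 to 92.8, lay below HN, from 106 to 132, and overlapped PEC, from 58.8 to 67.7. HN against Control was 0.08 on the log2 scale (95% interval -0.25 to 0.41, edgeR adjusted p = 0.707). With library totals alone it was 0.63 (edgeR adjusted p = 0.00545) and called, and with length and GC offsets it was -0.17, so the value for this gene in HN depended on the scale. PEC against HN was called with a fall of 0.66 (SE 0.15, edgeR adjusted p = 0.00694). It stayed below 0 in all settings, but fell short of the fold threshold without HN replicate 4, at -0.53, without PEC replicate 3, at -0.58, and with length and GC offsets, at -0.58. PEC against Control was -0.58 (95% interval -0.90 to -0.25, edgeR adjusted p = 0.0102), a fold of 1.49 that was just under the threshold. Without Control replicate 2, Control replicate 5 or PEC replicate 2 it was -0.63, -0.66 and -0.63 and called. These are mRNA values, and the amount or place of the β-catenin protein was not measured.

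Axin2 is a direct target of β-catenin and a scaffold of the complex that destroys it, and it is widely read as a gauge of the pathway (ENSMUSG00000000142, chromosome 11 from 108920349 to 108950783, plus strand). Control replicates 2, 4 and 5 had 0.660, 0.589 and 0.604 TMM-scaled FPKM, HN replicates 4, 8 and 12 had 1.48, 1.62 and 1.41, and PEC replicates 1, 2 and 3 had 0.842, 0.616 and 1.40. Control values lay close together and HN values were all higher, whereas PEC values spread from the Control level in replicate 2 to just under the HN level in replicate 3. On the deposited FPKM scale Control, from 0.470 to 0.540, and PEC, from 0.630 to 1.46, did not overlap. The rise in HN was 1.30 on the log2 scale (SE 0.28, edgeR adjusted p = 0.00443) and was called in all 20 settings. PEC against HN was -0.63 (95% interval -1.25 to -0.02, edgeR adjusted p = 0.0943) and not called, but without PEC replicate 3 it was -1.0 (edgeR adjusted p = 0.00522) and called. With library totals alone it was -0.83 (edgeR adjusted p = 0.0400). PEC against Control was 0.67 (95% interval 0.05 to 1.28, edgeR adjusted p = 0.0737), and it was called without PEC replicate 2, at 0.90 (edgeR adjusted p = 0.0127), and with DESeq2, at 0.68 (DESeq2 adjusted p = 0.0369). Adjusted p-values for this gene over the libraries left out ranged from 0.00522 to 0.220 for PEC against HN and from 0.0127 to 0.252 for PEC against Control.

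Lef1 encodes a TCF/LEF factor that β-catenin uses to switch on its targets, and the gene is itself such a target (ENSMUSG00000027985, chromosome 3 from 131110471 to 131224356, plus strand). Its level was low, at 0.0367, 0.0481 and 0.0514 TMM-scaled FPKM in Control replicates 2, 4 and 5, 0.174, 0.166 and 0.163 in HN replicates 4, 8 and 12, and 0.172, 0.0881 and 0.163 in PEC replicates 1, 2 and 3. Every HN and PEC library was above every Control library, and PEC replicates 1 and 3 reached the HN level while replicate 2 did not. On the deposited FPKM scale all PEC libraries lay below all HN libraries. The counts were 21, 30 and 32 in Control, 142, 160 and 147 in HN, then 131, 61 and 101 in PEC libraries. The log2 fold change was 1.87 for HN against Control (SE 0.33, edgeR adjusted p = 0.00153) and 1.66 for PEC against Control (SE 0.33, edgeR adjusted p = 0.00277), each called in all 17 settings that tested the gene. PEC against HN was -0.21 with a 95% interval from -0.91 to 0.49. Lef1 shares 1208 exon bases with the antisense gene Lef1os1, which had up to 39 reads, and whether the counting used strand is not given in the sources used here, so reads of both genes cannot be told apart.

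TCF/LEF factors bind DNA at a short motif, so the stretch before the start of transcription is shown for 3 of the members that were called higher in HN, as a description of sequence only. The motif searched was CTTTG followed by 2 letters that were each A or T (CTTTGAA or CTTTGAT or CTTTGTA or CTTTGTT), on both strands. RefSeq promoter windows of GRCm38.p6, 250 bases before to 50 after a start, held it in 5544 of 32851 cases (16.9%). Windows were at hand for 6 members, with 11 windows in all, of which 2 held the motif. The first sequence is from the plus strand of Wnt11 (chr7:98834862-98835111) and lies outside the annotated gene. Its motif is in capitals, reads ATCAAAG on the strand shown, and begins 51 bases before the start. A further window of this gene, at a start inside it, held no match.
Wnt11: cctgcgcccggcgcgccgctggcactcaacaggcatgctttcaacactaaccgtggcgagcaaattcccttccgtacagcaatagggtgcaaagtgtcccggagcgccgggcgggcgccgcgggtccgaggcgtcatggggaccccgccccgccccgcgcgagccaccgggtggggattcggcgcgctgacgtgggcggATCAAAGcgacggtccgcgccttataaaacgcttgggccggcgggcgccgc
The next is from the plus strand of Lef1 (chr3:131156044-131156293), before a start inside an intron of the GENCODE gene, and its motif in capitals reads TACAAAG and begins 147 bases before that start. The other 3 Lef1 windows, which include those nearest the annotated 5′ end of the gene, held no match.
Lef1: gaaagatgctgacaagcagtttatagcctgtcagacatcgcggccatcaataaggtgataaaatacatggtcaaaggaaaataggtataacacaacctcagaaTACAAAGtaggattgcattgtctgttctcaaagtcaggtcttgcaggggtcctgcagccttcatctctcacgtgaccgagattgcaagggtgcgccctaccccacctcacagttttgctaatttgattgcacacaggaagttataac
The last is from the plus strand of Axin2 (chr11:108920099-108920348), outside the annotated gene, and has no match to these letters.
Axin2: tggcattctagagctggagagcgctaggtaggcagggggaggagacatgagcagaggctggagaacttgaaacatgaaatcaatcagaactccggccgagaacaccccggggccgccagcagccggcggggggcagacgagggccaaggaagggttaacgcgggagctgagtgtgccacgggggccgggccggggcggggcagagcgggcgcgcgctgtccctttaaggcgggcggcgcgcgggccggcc
Wnt11, Lef1 and Axin2 were all called higher in HN mice, with log2 fold changes of 1.29, 1.87 and 1.30, and the windows of Wnt4, Wnt9a and Ctnnb1 held no match. A match does not show that a factor binds there, and a window without one says nothing about sites elsewhere.

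Dkk3 belongs to the Dickkopf family of secreted proteins and is known to be released by stressed tubular cells (ENSMUSG00000030772, chromosome 7 from 112116017 to 112159057, minus strand). It was 8.27, 7.59 and 6.00 TMM-scaled FPKM in Control replicates 2, 4 and 5, then 22.9, 18.9 and 18.9 in HN replicates 4, 8 and 12, and 8.80, 10.3 and 8.50 in PEC replicates 1, 2 and 3. HN libraries stood far above the others, and the PEC libraries lay just above the Control libraries without overlap. Dkk3 had the smallest adjusted p of the members in both directions. The rise in HN was 1.5 on the log2 scale (SE 0.14, edgeR adjusted p = 4.02e-05), and the fall from HN to PEC was 1.12 (SE 0.14, edgeR adjusted p = 0.000358). Both were called in all 20 settings, with ranges of 1.28 to 2.05 and -1.33 to -1.03. PEC against Control was 0.38 (95% interval 0.06 to 0.69, edgeR adjusted p = 0.0509), and with library totals alone it was 0.73 (edgeR adjusted p = 0.00264) and called.

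Sfrp1, a secreted Frizzled-related protein that binds Wnt ligands outside the cell, was the second most abundant member (ENSMUSG00000031548, chromosome 8 from 23411502 to 23449632, plus strand). TMM-scaled FPKM was 18.9, 17.5 and 31.7 in Control replicates 2, 4 and 5, 42.8, 41.0 and 44.5 in HN replicates 4, 8 and 12, and 25.6, 27.7 and 21.4 in PEC replicates 1, 2 and 3. HN libraries were the highest, and Control replicate 5 lay above all PEC libraries while the other Control libraries lay below them. Sfrp1 rose by 0.94 on the log2 scale in HN (SE 0.21, edgeR adjusted p = 0.00529) and fell by 0.76 with PEC (SE 0.20, edgeR adjusted p = 0.0165). The rise was called in all 20 settings and was 1.25 at most when a library was left out. The fall was called in 19 and lost without PEC replicate 3, at -0.65 (edgeR adjusted p = 0.0588, with a range of 0.000764 to 0.0588 over the libraries left out). PEC against Control was 0.18 (95% interval -0.28 to 0.64).

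**Figure D2:**
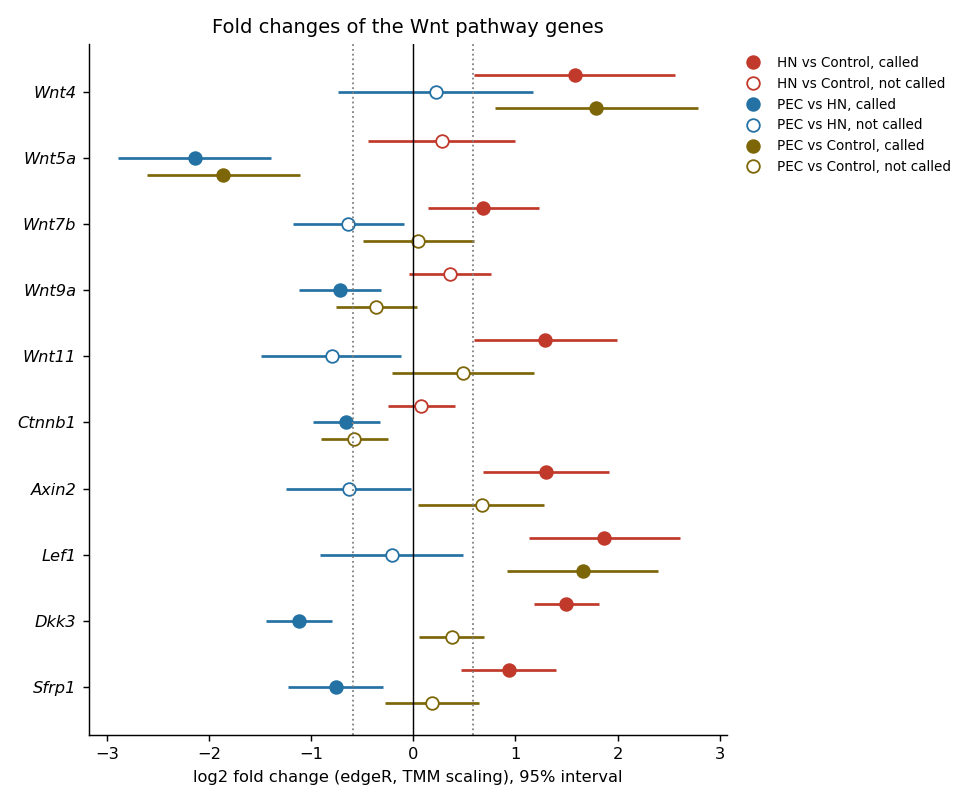
Log2 fold change (horizontal axis) with its 95% interval for the 10 members in the 3 comparisons, from edgeR on TMM-scaled counts. Filled points were called and open points were not, and dotted lines mark a fold of 1.5. Wnt5a has the lowest value, -2.14 for PEC against HN, and Lef1 the highest, 1.87 for HN against Control.

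**Figure D3:**
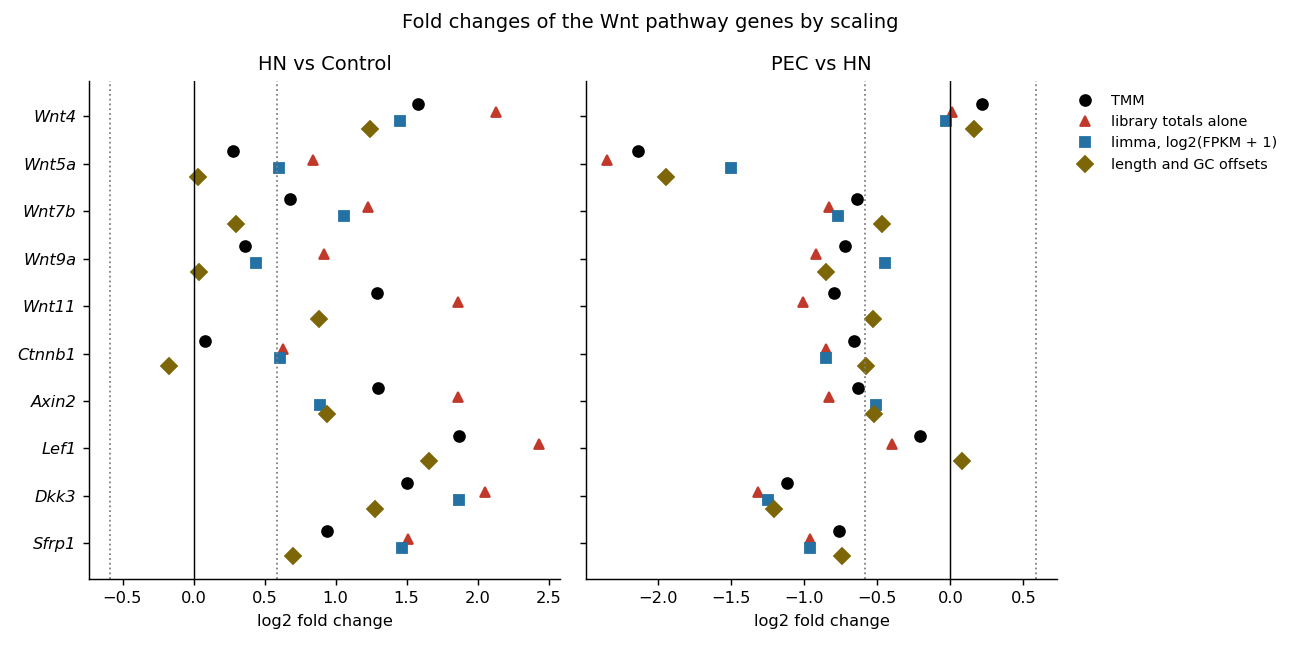
Log2 fold change (horizontal axis) of the 10 members, left for HN against Control and right for PEC against HN, under TMM factors, library totals alone, limma on log2(FPKM + 1), and length and GC offsets. Dotted lines mark a fold of 1.5, and Wnt11 and Lef1 have no limma point because their mean FPKM was under 0.5. Ctnnb1 in HN against Control ranged from -0.17 with length and GC offsets to 0.63 with library totals alone.

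By a rule set on likeness of profile, Dkk3 and Sfrp1, the members called in both HN against Control and PEC against HN, were set against all tested genes over the 9 libraries. The measure is the root mean square difference of log2 CPM, each gene relative to its own mean. Nearest to Dkk3 were Tbc1d2b, Nfkb1 and Snai1, at 0.08, 0.11 and 0.12, where the SD of Dkk3 itself was 0.69. Nearest to Sfrp1 were Cfap300, Platr25 and Rbl1, at 0.14, 0.15 and 0.15, where the SD of Sfrp1 was 0.51. This is a description of profiles and no test.

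The remaining genes of the pathway were taken from 9 lists by role, with 114 genes in all, members included, of which 107 were tested. In HN against Control mice 37 were called higher and 3 lower, with a median log2 fold change of 0.36, beside 3777 and 3154 of the 21392 tested genes and a median of 0.00. In PEC against HN mice 3 were higher and 38 lower with a median of -0.54, beside 2875 and 3266 of all tested genes and a median of -0.02. In PEC against Control mice 17 were higher and 17 lower with a median of 0.02, beside 4053 and 3731 and a median of 0.04. The share of calls that were higher depended on the scale. Of all called genes in HN against Control it was 54.5% with TMM factors (92.5% of the called pathway genes), 85.7% with library totals alone (95.9%) and 39.6% with length and GC offsets (75.0%, from 33 higher and 11 lower). With limma it was 81.9% on log2(FPKM + 1) and 83.2% on log2(FPKM + 0.1). In PEC against HN 46.8% of all called genes were higher with TMM factors, 29.6% with library totals alone, 28.6% and 28.4% with limma, and 55.9% with length and GC offsets. Of the called pathway genes in that comparison 7.32%, 3.57%, 2.70%, 3.85% and 13.3% were higher on the same scales. In PEC against Control the called pathway genes were 50% higher with TMM factors and 84.2% with library totals alone, from 32 higher and 6 lower, where all called genes were 52.1% and 76.6% higher. With limma on log2(FPKM + 1) that split was 17 higher and 7 lower (70.8%), and with a pseudocount of 0.1 it was 23 and 8 (74.2%), beside 70.7% and 70.9% of all called genes in the same fits, while length and GC offsets gave 17 higher and 20 lower (45.9%), and 41.6% of all called genes. The members in that comparison were 2 higher and 1 lower with TMM factors (66.7%), 5 and 1 with library totals alone (83.3%), and 2 and 3 with length and GC offsets (40.0%).

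**Figure D4:**
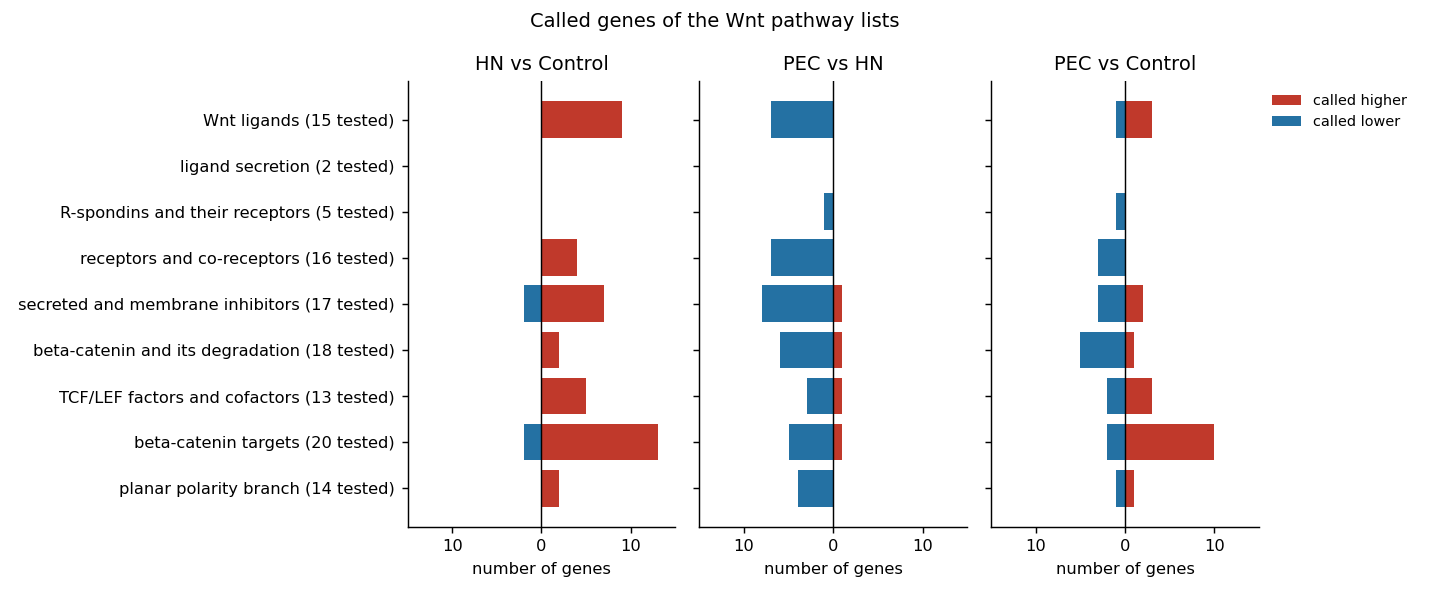
Number of genes (horizontal axis) called higher (to the right) and lower (to the left) in each of 9 lists of Wnt pathway genes, for the 3 comparisons, with the number tested in brackets. Of the 20 listed β-catenin targets, 13 were higher in HN than in Control mice and 10 were still higher in PEC than in Control mice.

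Counts in this and the other lists are to be read beside the shares of all tested genes. These were 17.7% higher and 14.7% lower in HN against Control, 13.4% and 15.3% in PEC against HN, and 18.9% and 17.4% in PEC against Control. Of 19 listed Wnt ligands 15 were tested, and 9 were higher and 0 lower in HN against Control mice, 0 higher and 7 lower in PEC against HN mice, and 3 higher and 1 lower in PEC against Control mice, with medians of 1.14, -0.72 and 0.05. The 3 higher in PEC against Control were near the share of all tested genes. In PEC against Control the ligands were 5 higher and 1 lower with library totals alone, and 3 higher and 4 lower with length and GC offsets. Wnt7a, a ligand close to Wnt7b in sequence, had 24, 0 and 5 reads in the Control libraries, 898, 995 and 995 in HN and 187, 161 and 151 in PEC. It was called in all 3 comparisons, at 6.06 for HN against Control, -2.12 for PEC against HN and 3.94 for PEC against Control on the log2 scale (edgeR adjusted p = 0.000308, 0.0278 and 0.00250), and its middle call was lost without any single HN or PEC library, at edgeR adjusted p from 0.0536 to 0.0707. Wnt10b had 0 reads in every Control library, 67, 58 and 38 in HN and 22, 26 and 41 in PEC. Set against a floor of 3 reads per Control library, it was at least 12.3-fold higher in HN and at least 9.25-fold higher in PEC mice. Wnt2 went from 0.184 ± 0.140 in Control to 0.795 ± 0.144 in HN and 0.169 ± 0.126 TMM-scaled FPKM in PEC mice (SD, n = 3), with log2 fold changes of 2.13 and -2.19 (edgeR adjusted p = 0.0281 and 0.0277). Both Wnt2 calls were lost without HN replicate 8 or 12, the first also without Control replicate 4 or 5 and the second without PEC replicate 1 or 2. Wnt16 fell by 1.38 with PEC (edgeR adjusted p = 0.00430). Wls and Porcn, which let cells release Wnt ligands, were tested, and edgeR with TMM factors called neither in any comparison, as DESeq2 did, with medians of -0.09, -0.15 and -0.24. On library totals alone and in limma 1 of them was called lower in PEC against HN. With TMM factors Wls was at -0.51 for PEC against HN (95% interval -0.72 to -0.30), short of the fold threshold.

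Of 16 receptors 0 were called higher and 7 lower in PEC against HN mice (0 higher with DESeq2 too, and 5 lower with length and GC offsets), after 4 higher and 0 lower in HN against Control mice, and with medians of 0.41 and -0.77, and -0.13 for PEC against Control. In HN 11 receptors were higher with library totals alone, and with length and GC offsets 4 were higher and 2 lower. Fzd1, a Frizzled receptor, went from 18.9 ± 1.60 to 40.6 ± 3.64 and 13.7 ± 0.522 TMM-scaled FPKM in Control, HN and PEC mice (SD, n = 3), at 1.12 and -1.55 on the log2 scale (edgeR adjusted p = 1.73e-05 and 1.75e-05). Fzd2 and Ptk7, a Wnt co-receptor of the planar polarity branch, moved in the same directions, at 1.61 and -1.24 and at 2.09 and -1.45. Ror2, a receptor for Wnt5a, was 0.80 in HN against Control (95% interval 0.12 to 1.47, edgeR adjusted p = 0.0580) and fell by 1.41 with PEC (edgeR adjusted p = 0.00583). Fzd3 rose by 0.91 in HN and fell by 0.84 with PEC, but with length and GC offsets the latter was -0.13, and on log2(FPKM + 1) the values were 0.57 and -0.45, short of the fold threshold. In PEC against Control mice 3 of the 16 were lower, namely Lrp6, Fzd5 and Lrp5 at -1.18, -0.92 and -0.77, and with library totals alone Fzd5 and Lrp5 were short of the fold threshold, at -0.57 and -0.42, and that scale called 2 receptors higher and 1 lower. Of the R-spondins and their receptors 5 of 7 were tested, and with edgeR and TMM factors only Lgr4 was called, lower in PEC mice by 0.68 against HN and 0.98 against Control. With length and GC offsets the former was -0.32 and not called, and with library totals alone 1 of these genes was called higher in HN against Control. The medians of these 5 genes were 0.27, 0.05 and 0.45 in the 3 comparisons.

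Inhibitors did not move as a single group. In HN against Control mice 7 of 17 tested were higher and 2 lower, in PEC against HN mice 1 was higher and 8 lower, and in PEC against Control mice 2 were higher and 3 lower, with medians of 0.45, -0.73 and -0.09. In HN against Control the count was 11 higher and 2 lower with library totals alone, and 7 higher and 4 lower with length and GC offsets. For PEC against Control edgeR with library totals alone gave 4 higher and 0 lower. Each of the 3 lower calls in that comparison, Dkk2, Sfrp2 and Notum, was lost without Control replicate 5, without PEC replicate 2 and without PEC replicate 3. The higher call of Apcdd1 was lost when any 1 Control library, HN replicate 4 or 8, or PEC replicate 3 was left out. Sfrp5 rose from 0.0993 ± 0.0346 to 1.52 ± 0.310 TMM-scaled FPKM in HN (SD, n = 3) and Apcdd1 by 1.99 on the log2 scale. Dkk2, Sfrp4 and Frzb, as Dkk3 and Sfrp1 did, rose in HN and fell with PEC, at 0.88 and -1.52, 1.59 and -1.34, and 1.07 and -1.17. Notum, an enzyme that inactivates Wnt ligands and is itself a β-catenin target, went the other way, from 7.07 ± 0.950 to 1.36 ± 0.577 and 3.39 ± 0.856 (SD, n = 3), with -2.35 in HN and 1.33 with PEC (edgeR adjusted p = 0.000485 and 0.0112). Sost had 38, 38 and 60 reads in Control, 4, 0 and 4 in HN, then 10, 0 and 10 in PEC libraries, and was called lower in HN (edgeR adjusted p = 0.0126).

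The list of β-catenin and its degradation held 18 tested genes, of which 2 were higher and 0 lower in HN against Control mice (median 0.06), 1 higher and 6 lower in PEC against HN mice (median -0.33), and 1 higher and 5 lower in PEC against Control mice (median -0.13). The share higher in HN was under the 17.7% of all tested genes, and the 2 shares lower with PEC were above the 15.3% and 17.4% of all tested genes. In HN against Control mice 9 were higher and 0 lower with library totals alone, and with length and GC offsets 2 were higher and 3 lower. The HN calls were Axin2 and Csnk1e, a casein kinase that acts on Dishevelled, at 1.36 (edgeR adjusted p = 2.05e-05). With PEC, Tnks and Tnks2, the tankyrases that mark Axin for destruction, fell by 0.94 and 1.05, and Fbxw11, part of a ligase for β-catenin, by 0.88. With length and GC offsets Tnks and Tnks2 were -0.27 and -0.40 and the list had 1 higher and 1 lower. Gsk3b was -1.71 with PEC against HN (edgeR adjusted p = 0.0352), with 787, 726 and 2339 reads in PEC libraries and 3524, 7805 and 6643 in HN, and the call was lost without HN replicate 8 or 12 or PEC replicate 1 or 2, at edgeR adjusted p from 0.0828 to 0.0988, and with length and GC offsets, at -1.09. With library totals alone the PEC against Control count of this list turned to 6 higher and 2 lower.

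Among 13 TCF/LEF factors and cofactors 5 were higher in HN than in Control mice, 1 was higher and 3 lower in PEC against HN mice, and 3 were higher and 2 lower in PEC against Control mice, with medians of 0.56, -0.42 and 0.27. In HN against Control 12 of 13 were higher with library totals alone, 9 of 11 with limma on log2(FPKM + 0.1), and 3 of 13 with length and GC offsets. Library totals alone gave 1 higher and 7 lower in PEC against HN, and 5 higher and 0 lower in PEC against Control. Tcf7, a factor close to Lef1, showed the order Control, PEC and HN, at 0.364 ± 0.161, 1.64 ± 0.0579 and 2.54 ± 0.142 TMM-scaled FPKM (SD, n = 3). It was called in HN against Control at 2.81 and in PEC against Control at 2.20 (edgeR adjusted p = 8.64e-05 and 0.000339), while PEC against HN was -0.61 (95% interval -1.24 to 0.02). Pygo1, a cofactor that reads histones, rose by 1.83 in HN, and Bcl9 by 0.71, or 0.45 with length and GC offsets. With PEC against HN the corepressor Tle4 fell by 1.04 and its relative Tle2 rose by 1.02, or 0.56 on log2(FPKM + 1), while Bcl9l fell by 0.90 but was -0.15 with length and GC offsets.

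Listed β-catenin targets gave 13 higher and 2 lower of 20 in HN against Control mice, 1 higher and 5 lower in PEC against HN mice, and 10 higher and 2 lower in PEC against Control mice, with medians of 1.80, -0.40 and 1.26. In PEC against HN 8 were lower with library totals alone, and 10 of 16 with limma on log2(FPKM + 0.1). Several of them are known to answer to other signals as well. Mmp7, a matrix protease, had 4, 0 and 4 reads in Control, 3431, 3646 and 2493 in HN, then 1550, 741 and 2126 in PEC libraries. Nkd2, an antagonist of Dishevelled, went from 0.153 ± 0.0291 to 6.82 ± 1.35 and 3.19 ± 0.836 TMM-scaled FPKM (SD, n = 3), at 5.47 in HN and -1.08 with PEC (edgeR adjusted p = 2.44e-06 and 0.00553). Cd44, a hyaluronan receptor, rose by 4.96 in HN and was -0.57 with PEC against HN (95% interval -0.92 to -0.22), just short of the fold threshold. Twist1, a factor of mesenchymal cells, rose by 1.74 in HN and fell by 1.52 with PEC. Not all targets were higher, since Sp5, a direct target, stood at 10.6 ± 1.14 TMM-scaled FPKM in Control mice against 3.30 ± 0.258 with HN alone and 2.97 ± 0.653 with PEC (SD, n = 3) and was called lower in HN at -1.66 (edgeR adjusted p = 7.92e-05). Sp5 and Notum were thus lower in HN mice while Axin2, Lef1 and Tcf7 were higher. Sp5 lies outside the rule for named genes and was named after its values were seen, together with Notum as the targets called lower in HN.

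**Figure D5:**
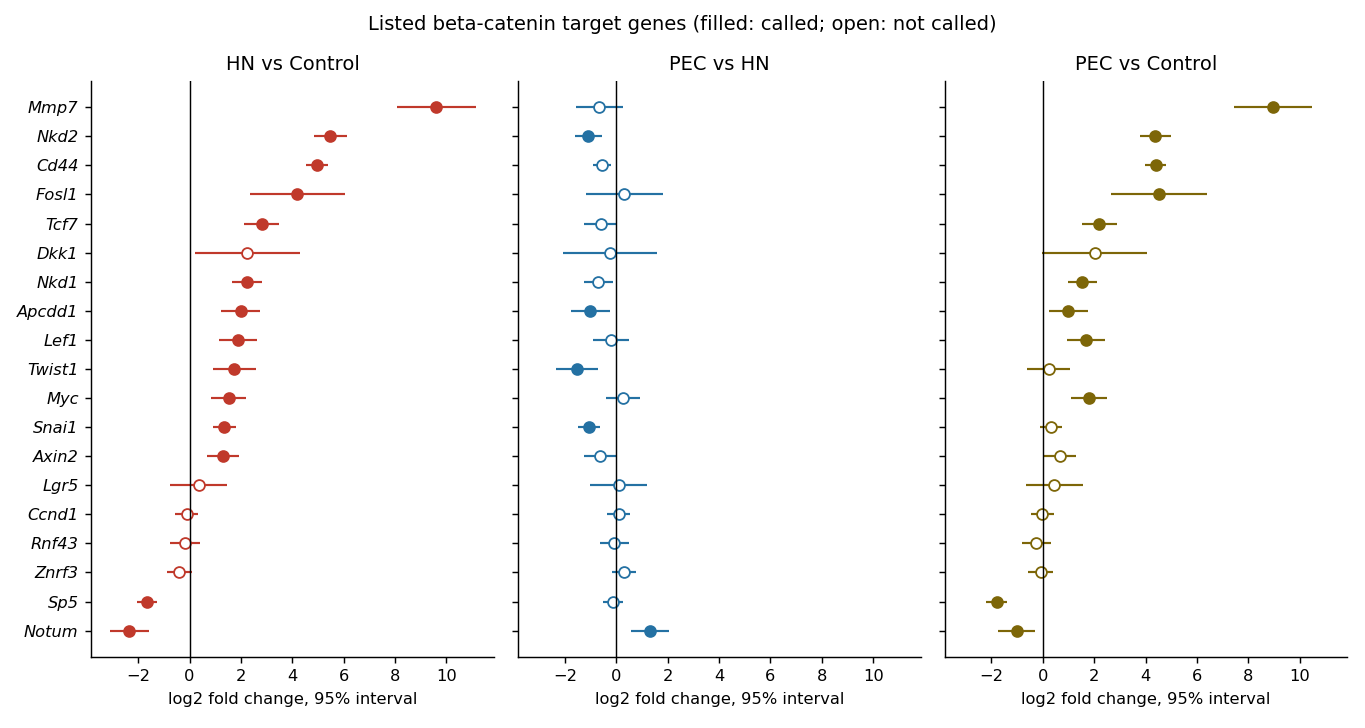
Log2 fold change (horizontal axis) with its 95% interval of 19 of the 20 listed β-catenin targets in the 3 comparisons, ordered by HN against Control. Filled points were called. Mmp7, Nkd2 and Cd44 are at the top, from 9.61 to 4.96, and Sp5 and Notum at the bottom, at -1.66 and -2.35, and the value of Mmp7 rests on at most 4 reads in a Control library.

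In the planar polarity branch 2 of 14 genes were higher in HN than in Control mice and 4 lower in PEC than in HN mice, and in PEC against Control mice 1 was higher and 1 lower, with medians of 0.13, -0.35 and -0.04. The share higher in HN was under the 17.7% of all tested genes, and that lower in PEC against HN was above 15.3%. Both shares in PEC against Control were under the 18.9% and 17.4% of all tested genes. For HN against Control 10 of 14 were higher with library totals alone, and with limma on log2(FPKM + 0.1) 10 of 13. Vangl2, a core membrane protein of the branch, rose by 2.11 in HN and fell by 0.95 with PEC (edgeR adjusted p = 3.18e-05 and 0.00363). Daam1, which links Dishevelled to actin, fell by 0.70 with PEC against HN, and with length and GC offsets this was -0.32. It was also the lower call in PEC against Control, at -0.59, close to the fold threshold. That call was lost with DESeq2, at -0.57, and with library totals alone, at -0.23. Leaving out Control replicate 2, PEC replicate 1 or PEC replicate 2 lost it too.

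Whole kidney is a mixture of cell types, and in such tissue fewer cells of a type and less RNA per cell cannot be told apart. The submitters' extraction protocol speaks of an adipose type, whereas the labels for tissue and source read kidney. The libraries held kidney markers at high levels, with Umod of the thick limb at 1085 ± 48.2, 1120.4 ± 82.8 and 1112 ± 74.9 TMM-scaled FPKM in Control, HN and PEC mice (SD, n = 3). The injury markers Havcr1 and Lcn2 both rose in HN mice, at 7.58 and 6.28 on the log2 scale, and edgeR with TMM factors called neither for PEC against HN, as DESeq2 did, at -0.55 (95% interval -1.11 to 0.01) and -0.05 (95% interval -1.03 to 0.93). On library totals alone and in both limma fits 1 of them was called lower there. "Most abundant" below refers to the mean over all 9 libraries, and the rank within a group can differ. Of 8 fibroblast and myofibroblast markers 8 were higher in HN than in Control mice and 6 were lower in PEC than in HN mice. Summed over these markers, TMM-scaled FPKM was 56.9, 55.1 and 53.6 in Control replicates 2, 4 and 5, 310.3, 309 and 280.3 in HN replicates 4, 8 and 12, and 169.7, 192 and 159.7 in PEC replicates 1, 2 and 3. In this sum PEC libraries lay between the other groups. With length and GC offsets 4 of the 8 markers were lower in PEC than in HN mice, with Dcn at -0.21 and Postn at -1.10 not called. The Postn call was also lost when any 1 HN library, PEC replicate 1 or PEC replicate 2 was left out. Col3a1, the most abundant over all libraries but below Acta2 in Control and PEC mice, was at 4.62 ± 0.517, 83.5 ± 4.58 and 33.6 ± 4.59 in Control, HN and PEC (SD, n = 3).

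Of 6 macrophage markers 6 were higher in HN and 5 lower with PEC against HN, with sums of 25.9, 30.4 and 29.3 in Control replicates 2, 4 and 5, 299, 328 and 255 in HN replicates 4, 8 and 12, and 108, 123 and 174 in PEC replicates 1, 2 and 3, and with C1qa as the most abundant. Of 8 T cell markers 8 were higher in HN and 3 lower with PEC, or 5 lower with library totals alone, with sums of 3.24, 4.70 and 2.66, then 16.1, 27.1 and 19.5, then 12.1, 12.1 and 14.5 in the same order of libraries, and with Trbc2 as the most abundant. Each of the 3 lower calls, Cd3d, Cd4 and Il7r, was lost without HN replicate 8, without HN replicate 12 and without PEC replicate 1. The summed macrophage and T cell markers thus had the order Control, PEC and HN, as the summed fibroblast markers did. Single markers differed, with Acta2 at 19.9, 48.5 and 49.9 and Pdgfra at 5.39, 13.7 and 4.90 TMM-scaled FPKM in Control, HN and PEC mice (means, n = 3). Of 7 proximal tubule markers 6 were lower in HN and 5 higher with PEC, or 5 higher and 1 lower in DESeq2 and 3 higher and 1 lower with library totals alone and with limma, with sums of 1736, 1785 and 2058 in Control, 381, 364 and 374 in HN, then 702, 894 and 509.5 in PEC libraries, and with Slc34a1 as the most abundant. Slc5a12 did not follow the sum, at 47.1, 21.2 and 9.97 in Control, HN and PEC mice, with -1.08 for PEC against HN (95% interval -2.07 to -0.10). The part of these cell types in the levels of the Wnt pathway genes was not tested.

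Collecting duct markers, with Aqp2 as the most abundant, were lower for 4 of 7 in HN and higher for 4 with PEC. In HN 2 were higher and 3 lower with library totals alone, and 2 higher and 2 lower with limma, which called 2 higher with PEC. They summed to 481, 528 and 283 in Control replicates 2, 4 and 5, 237, 166 and 230.4 in HN replicates 4, 8 and 12, and 289, 269 and 340.2 in PEC replicates 1, 2 and 3. In this sum, as in Wnt4 and Wnt7b, Control replicate 5 was the lowest of its group and PEC replicate 3 the highest. Control replicate 5 was also the lowest of its group in Wnt5a, Ctnnb1 and Dkk3. Of this sum Aqp2 made up 123, 116 and 179 in PEC replicates 1, 2 and 3. The place of PEC replicate 3 rested on this gene, since without Aqp2 that library was not the highest of its group. PEC replicate 3 also stood apart in urothelium markers, which line the renal pelvis, with a sum over 5 genes of 33.2, against 3.38 and 1.51 in PEC replicates 1 and 2, 8.04, 9.08 and 6.21 in Control and 3.04, 3.96 and 7.52 in HN libraries. Upk3a, the most abundant over all libraries but below Upk1a in Control mice, was at 9.0 in PEC replicate 3 and at most 2.58 elsewhere. With edgeR and TMM factors 0 of the 5 were called in any comparison, as with DESeq2. The same library was the highest PEC library in Wnt4, Wnt7b, Wnt11 and Axin2. It was the lowest PEC library in Wnt5a, Wnt9a, Ctnnb1, Dkk3 and Sfrp1, and lay between the other PEC libraries in Lef1. In Wnt5a and Wnt9a it was the lowest by little, at 0.497 and 0.593 against 0.498 and 0.603 in PEC replicate 1. The part of the tissue sampled in these differences was not tested.

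Over all libraries the most abundant intercalated cell, podocyte and endothelium markers were Atp6v1b1, Podxl and Emcn, which did not hold in each group. Of 6 thick limb and distal tubule markers 3 were lower in HN and 2 higher with PEC, of 5 intercalated cell markers 2 were lower and 3 higher, of 5 podocyte markers 1 was higher in HN and 0 were called with PEC, and of 6 endothelium markers 1 was lower and 1 higher. These counts depended on the scale. With library totals alone the thick limb markers were 2 higher and 2 lower in HN, the intercalated cell markers 1 higher and 1 lower in HN and 1 higher with PEC, the podocyte markers 3 higher in HN, and the endothelium markers 1 higher and 0 lower in HN. The endothelium call with PEC, Emcn, was lost there, in both limma fits, and when any 1 Control library, HN replicate 8 or 12, or PEC replicate 3 was left out. B and plasma cell markers were higher for 3 of 6 in HN and lower for 1 with PEC, which was Jchain, at 3.92 ± 1.99, 18.2 ± 6.44 and 1.52 ± 0.781 in Control, HN and PEC (SD, n = 3). Adrenal cortex markers were near 0, with sums of 0.599 to 1.24 and only Star, the most abundant, tested.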

How the data were processed

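Poly(A) RNA-seq of 9 mouse kidneys was analysed from the deposited table. The authors deposited counts, which are whole reads per gene without normalization, and FPKM, which the authors computed per kilobase of gene and scaled to the counted reads of the library. Each count column was matched to the FPKM column with its name, where the SD between their centred log2 values was 0.000635 or less in 5013 genes, whereas columns of other names gave 0.222 or more. The aligner, counting program, use of strand and annotation are not given in the sources used here. The submitters' processing notes name Bowtie 0.12.2 and the builds mm8 and mm9 without a role, whereas coordinates in the table were those of GRCm38, identical to GENCODE release M21 for 51991 of 55144 genes found in both. Groups and replicate numbers came from the sample labels, and each library was taken as 1 mouse.

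Counts were tested with edgeR 4.0.16 in R 4.3.3 (filterByExpr, TMM factors, glmQLFit and glmQLFTest) in 1 fit over 9 libraries, with Benjamini-Hochberg adjustment over 21392 genes. Total counts ranged from 57714111 to 81069646, and the spread between replicates exceeded counting error (chi-square divided by degrees of freedom, 57.39 to 193.9). The floor of 3 reads covers counting error only. The steps were tested on simulated counts, where 190 of 198 genes changed 3-fold were recovered and 15 unchanged genes were called. Few genes were changed there, evenly in both directions, and all genes had the same spread. The simulation therefore does not cover the different make-up of the RNA or the spread between replicates in these libraries. Alternatives were DESeq2 1.42.0, median-of-ratios (RLE) factors in edgeR, library totals alone, no filter on low counts, a mean FPKM of at least 0.5, limma 3.58.1 on log2(FPKM + 1) and log2(FPKM + 0.1), a fit of only the groups compared, unadjusted p, no fold threshold, a fold of at least 2, each library left out in turn, and offsets for gene length and GC content.

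Named genes are the 10 members, up to 4 called genes per pathway list and comparison with the largest fold change, Havcr1 and Lcn2, the most abundant gene of each marker list, and the 3 genes nearest in profile to each member that was called both in HN mice and with PEC. Not every gene that the rule takes is named. Sp5, Wls, Porcn, Acta2, Pdgfra, Dcn, Postn, Slc5a12, Cd3d, Cd4, Il7r and Upk1a lie outside it and were named after their values were seen. Lef1os1 also lies outside it and is named because its exons overlap those of Lef1. The members and lists were chosen with earlier results of these data known. Promoter windows came from RefSeq. Figures were drawn with matplotlib 3.10.9.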

Additional observations from a re-analysis of the deposited data

How the results depend on the processing

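Of the called member results, the HN against Control calls of Wnt11, Axin2, Lef1, Dkk3 and Sfrp1, the PEC against HN calls of Wnt5a and Dkk3, and the PEC against Control calls of Wnt4, Wnt5a and Lef1 kept their direction and their side of the threshold in all settings that tested them. Over all members, comparisons and settings, 520 values kept both (the fold of 2 was applied to counts of genes only), 14 lost a call, 35 gained one and 13 changed sign, none of which belonged to a called result. With library totals alone, members lower in PEC against HN were 8 and members higher in PEC against Control 5, and pathway genes were 70 higher in HN against Control and 32 higher and 6 lower in PEC against Control. Of all 21392 genes tested on that scale, 4631 were lower in PEC against HN and 7708 higher in HN against Control. In PEC against Control 6415 of them were higher and 1960 lower. With length and GC offsets, members lower in PEC against Control were 3 and pathway genes lower in HN against Control 11, beside 4454 and 4720 of all 21358 tested genes. The log2 fold changes that changed sign with these offsets were -0.17 for Ctnnb1 in HN against Control, 0.08 for Lef1 in PEC against HN, and -0.17 for Wnt7b and -0.04 for Sfrp1 in PEC against Control. With limma on log2(FPKM + 0.1), pathway genes were 57 higher in HN against Control and 8 lower in PEC against Control, beside 5906 and 1919 of all 15508 tested genes. Wnt4 in PEC against HN was -0.03 there. With log2(FPKM + 1), pathway genes were 1 higher in PEC against HN and 7 lower in PEC against Control, beside 1356 and 1485 of all 15508 tested genes. Wnt4 in PEC against HN was again -0.03. With no fold threshold, pathway genes were 7 lower in HN against Control and 5 higher in PEC against HN, and members 2 lower in PEC against Control. At a fold of at least 2, members were 2 lower in PEC against HN, and pathway genes 22 lower in PEC against HN and 7 lower in PEC against Control. An unadjusted p gave 8 members lower in PEC against HN, and a mean FPKM of at least 0.5 gave 1 member higher in PEC against Control, because Lef1 was not tested there. For these changed thresholds and filters the shares of all tested genes are not given here, so the counts cannot be set against them. With libraries left out in turn, members lower in PEC against Control ranged from 1 to 2, where Ctnnb1 joined without Control replicate 2 or 5 or PEC replicate 2. Over the libraries left out, Ctnnb1 in HN against Control ranged from -0.05 to 0.23, Wnt4 in PEC against HN from -0.18 to 0.43, Lef1 in PEC against HN from -0.35 to 0.03, and Wnt7b in PEC against Control from -0.21 to 0.24. Signs changed at 0.00 (below 0 before rounding) without Control replicate 5 and -0.05 without HN replicate 4 for Ctnnb1 in HN against Control, at -0.01 without HN replicate 4 and -0.18 without PEC replicate 3 for Wnt4 in PEC against HN, at 0.03 without PEC replicate 2 for Lef1 in PEC against HN, and at -0.14 without Control replicate 5 and -0.21 without PEC replicate 3 for Wnt7b in PEC against Control. Except where a setting tests other genes or applies another threshold, the cause was not tested. Lef1 and Wnt11 had no limma value. No paired analysis was made, because the groups hold different mice and no label pairs them. A replicate number found in both Control and HN was not read as a pair. Depth limits Lef1, with as few as 21 reads, and Wnt11 more than the other members.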
